A study of Zea mays with 6 samples.

Results

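Transcript levels of 5 maize genes for epidermis identity and surface wax were examined in anthers of wild-type and zmrpn1 plants. The genes were taken by identifier from the 46430 rows of the deposited count table. They are cr4 (Zm00001d023425), dek1 (Zm00001d028818), gl1 (Zm00001d020557), gl2 (Zm00001d002353) and gl8 (Zm00001d017111). The RNA-seq libraries came from S3 to S5 stage anthers of Zea mays, per the labels. The 3 WT libraries carry the genotype code AA. The 3 zmrpn1 libraries carry the code aa, are described as a ZmRPN1 knockout and have the word Mutator in their titles. Mutator is the name of a family of maize transposons, but the titles do not say how the gene was disrupted. The series title links ZmRPN1 to pollen number. The contrast of the genotypes asks how the transcripts of anthers change when that gene is disrupted. The labels give no agent, plant age or inbred background. They do not state if replicate libraries are from different plants or from pooled material, so p-values reflect variation among these libraries, which may be technical.

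The epidermis is the outermost cell layer of the plant and of the anther. In maize its identity depends on cell-surface signalling, in which the receptor kinase CR4 and the membrane-anchored calpain protease DEK1 take part. Both are best known from the aleurone, the surface layer of the endosperm, whose fate is lost or disturbed in the mutants. Epidermal cells elongate fatty acids into very long chains and turn them into waxes that cover the cuticle. The glossy (gl) mutants of maize, among them gl1, gl2 and gl8, were found by the altered wax coat of their seedling leaves.

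None of the 5 genes passed the test for a difference between zmrpn1 and WT anthers. Of the 5, 0 were called by the quasi-likelihood test of edgeR, where a call is an adjusted p (Benjamini-Hochberg) under 0.05 with 3 libraries in each group. Of all 23477 tested genes 12.4% were called, 6.63% as higher and 5.82% as lower in zmrpn1. With a background of that size, a count of 0 among 5 genes does not set them apart from the rest. All 5 passed the filter on low counts, 0 had an unadjusted edgeR p under 0.05, and DESeq2 and limma-voom also called 0. The log2 changes were negative for cr4, dek1 and gl1 and positive for gl2 and gl8. Their median was -0.019 and their median absolute value 0.077, against 0.0012 and 0.104 over all tested genes, scarce ones included. Among tested genes with a mean within 0.5 log2 CPM, the median absolute change was 0.056 to 0.062 for cr4, dek1, gl2 and gl8. For gl1 it was 0.35. The absolute changes of gl2 and gl8 were above these medians, and those of cr4, dek1 and gl1 below. For the 4 genes other than gl1 the intervals were narrow, though they cover only the variation among these libraries. Their 95% intervals lay between 0.900-fold and 1.18-fold of the WT level.

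**Figure D1:**
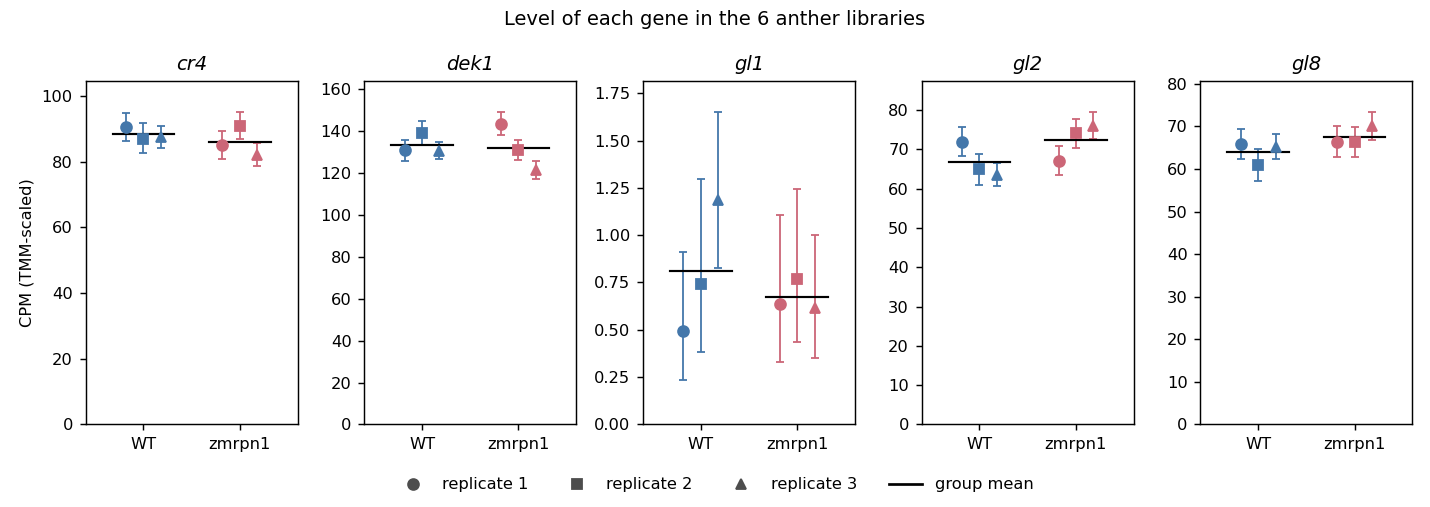
CPM (counts scaled to library size, with TMM factors) of each gene in the 3 WT and 3 zmrpn1 libraries. Symbols mark replicates, bars are 95% Poisson intervals for counting error only and black lines are group means. The y axes start at 0 and differ between genes. Groups overlap for cr4, dek1, gl1 and gl2, and the gl8 groups are parted by 65.9 against 66.3 CPM.

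The libraries held 16203290 to 29515176 counts each, and TMM, the scaling by trimmed means of log ratios used for all CPM values, moved library sizes by little, with factors from 0.989 to 1.01. Across genes, log2 CPM of libraries of the same group correlated at 0.992 to 0.993, and of different groups at 0.979 to 0.982. By these values no library stood apart from its group. The sources used here give no identifier for ZmRPN1, so the targeted gene was not analysed here. The names of the 5 genes are those of the gene list and not of the count table. RefSeq holds a gene of each name, and by row order, 4 of the identifiers lie between the same microRNA precursors as the gene of that name does in the reference assembly. The row of cr4 lies ahead of the first matched precursor of chromosome 10, as cr4 does in the reference. These intervals span 113 to 1525 rows, so the check is coarse. Apart from the gene list, no source used here pairs a nuclear identifier of the table with a name. The 36 further symbols for epidermis, cuticle and wax genes and the 24 markers of anther layers and other tissues therefore gave no values, and the labelled tissue was not checked against its markers. In whole anthers, fewer epidermal cells and less RNA per epidermal cell cannot be told apart.

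CR4 is a receptor-like kinase of the plasma membrane that is needed for normal leaf epidermis and for aleurone fate. In WT anthers cr4 was at 90.5, 87.0 and 87.5 CPM in replicates 1 to 3, and in zmrpn1 anthers at 85.0, 90.9 and 82.0 CPM. The WT values lay inside the range of the zmrpn1 values. The group means were 88.3 ± 1.87 CPM in WT and 86.0 ± 4.50 CPM in zmrpn1 (SD, n = 3 each). The log2 change of cr4 was -0.040 (standard error 0.055, edgeR adjusted p = 0.741), and its 95% interval ran from -0.15 to 0.072. In fold terms, this interval ran from 0.900 to 1.05 times the WT level. The coefficient of variation in WT was 2.11%, against 2.34% from counting error alone. In zmrpn1 it was 5.23%, against 2.32% from counting.

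DEK1 is a large membrane protein with an intracellular calpain protease domain, required for aleurone and epidermis formation. Its gene was at 130.8, 139.3 and 130.8 CPM in the WT libraries and at 143.6, 130.9 and 121.3 CPM in the zmrpn1 libraries. The highest and the lowest of the 6 values both belonged to zmrpn1, with the WT libraries between them. The means were 133.6 ± 4.89 and 131.9 ± 11.2 CPM (SD, n = 3 each), and the log2 change was -0.019 (standard error 0.057, edgeR adjusted p = 0.900; 95% interval -0.13 to 0.097). Expressed as a fold, the interval ran from 0.911 to 1.07. The coefficient of variation of dek1 in zmrpn1 was 8.46%, where counting error gives 1.87% and the median of 1645 tested genes of like abundance was 4.04%. Like abundance here means a mean within 0.5 log2 CPM of the gene. The sign of the dek1 change depended on single libraries, being 0.041 without zmrpn1 replicate 3 and 0.011 without WT replicate 2.

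The wax genes fell into a scarce member and 2 well-counted ones. GL1 is a membrane protein needed for normal wax and cuticle of the seedling. In WT its gene was counted 10, 12 and 35 times, and in zmrpn1 12, 16 and 16 times. These counts correspond to 0.495, 0.744 and 1.19 CPM in WT and to 0.635, 0.766 and 0.617 CPM in zmrpn1. All zmrpn1 values lay within the WT range, and WT replicate 3 stood above the other 5 libraries. The means were 0.808 ± 0.350 and 0.673 ± 0.0811 CPM (SD, n = 3 each). The log2 change of gl1 was -0.33 (standard error 0.37, edgeR adjusted p = 0.658), and without WT replicate 3 it was 0.14. The 95% interval of gl1 ran from 0.474-fold to 1.33-fold of the WT level, the widest of the 5 genes. Counting error alone gives a coefficient of variation of 26.6% in WT for gl1, where 43.3% was measured, and of 26.4% in zmrpn1, where 12.1% was measured. With a filter of at least 1 CPM in 3 libraries gl1 was not tested.

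GL2 belongs to a family of acyltransferase-like proteins and is needed for the elongation of fatty acids into the longest wax precursors. Its gene was at 71.9, 64.9 and 63.6 CPM in WT and at 67.0, 74.1 and 76.0 CPM in zmrpn1. Replicates 2 and 3 of zmrpn1 lay above all WT libraries, and zmrpn1 replicate 1 lay between WT replicates 1 and 2, so the groups overlapped. The means were 66.8 ± 4.49 and 72.4 ± 4.75 CPM (SD, n = 3 each). The log2 change of gl2, 0.12 with a standard error of 0.060, was the highest of the 5 genes and did not pass the test (edgeR unadjusted p = 0.0565, adjusted p = 0.231). Its 95% interval ran from 0.998-fold to 1.18-fold. The unadjusted p of gl2 was 0.0354 with scaling by library size only and 0.0471 with genes of low counts included, with adjusted p of 0.172 and 0.254. Over 14 alternative fits the adjusted p of gl2 ran from 0.0885, without WT replicate 1, to 0.556, without WT replicate 3.

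GL8 is the ketoacyl reductase of the fatty acid elongase, the enzyme complex that lengthens fatty acids for waxes. Its gene was at 65.9, 60.9 and 65.3 CPM in WT and at 66.4, 66.3 and 70.0 CPM in zmrpn1. All 3 zmrpn1 libraries lay above all 3 WT libraries, by a gap between 65.9 and 66.3 CPM that is narrower than the counting interval of either library (62.4 to 69.5 and 62.8 to 69.9 CPM). Of all tested genes 27.0% had groups that did not overlap, 13.8% with zmrpn1 higher and 13.2% with zmrpn1 lower, so 1 such gene of 5 is near the background. With upper quartile scaling the gl8 groups overlapped, at 66.2 CPM for the highest WT and 66.0 CPM for the lowest zmrpn1 library. The means were 64.0 ± 2.75 and 67.6 ± 2.13 CPM (SD, n = 3 each), and the log2 change was 0.077 (standard error 0.057, edgeR adjusted p = 0.461). The 95% interval of gl8 ran from 0.974-fold to 1.14-fold. RefSeq also lists gl8b, a close paralog of gl8. The sources used here do not say how reads shared by such copies were counted, so the level of gl8 is uncertain to that extent.

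**Figure D2:**
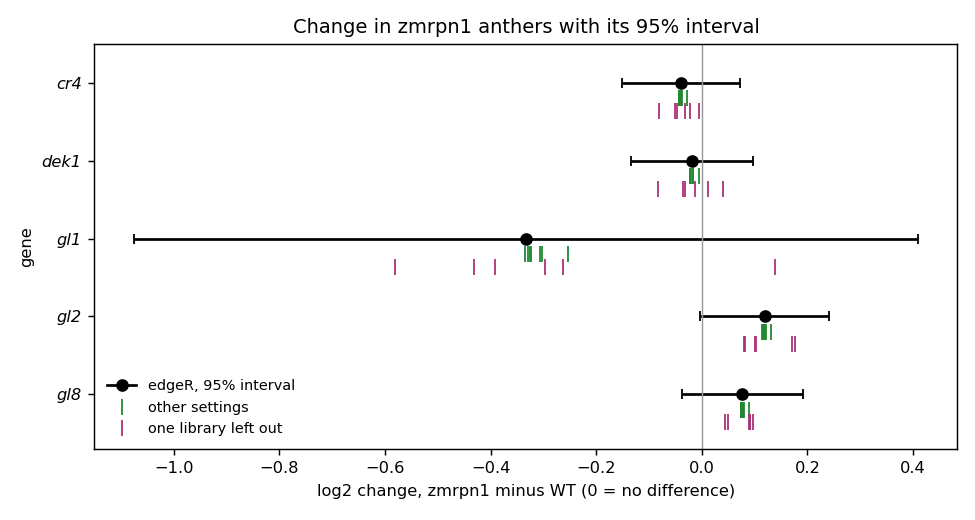
Log2 change of each gene in zmrpn1 relative to WT (x axis, 0 is no difference). Black points and bars are the edgeR estimate and its 95% interval, green ticks are other scalings, tests, filters and the replicate block, and purple ticks leave out a single library. All 5 intervals include 0, and ticks lie on both sides of 0 for dek1 and gl1.

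The standard error of each gene was close to that of other genes of its abundance. The fit draws the spread of each gene toward that of such genes, so this likeness is partly built in. The measured coefficient of variation of gl2 was 6.72% in WT and 6.56% in zmrpn1, beside like-abundance medians of 3.95% and 4.41%. It was below the like-abundance median for cr4 in WT and for gl1 and gl8 in zmrpn1, and above it otherwise. The standard errors of cr4, dek1, gl2 and gl8 were 0.055 to 0.060 log2 units, and the medians of tested genes of like abundance were 0.054 to 0.059. For gl1 the standard error was 0.37, beside a median of 0.37 over 1719 genes of like abundance. Around cr4 and dek1, 12.5% of 2686 and 12.4% of 1645 such genes were called. Around gl2 and gl8 the shares were 12.5% of 3202 and 12.5% of 3369, and around gl1 9.42%. The smallest absolute log2 change among called genes of like abundance was 0.15 for cr4 and dek1, 0.16 for gl2 and gl8, and 0.93 for gl1. The absolute log2 change of each of the 5 genes was smaller than that, which largely restates that none of them was called. Among genes of like abundance 64.2% had a larger absolute change than cr4, 81.7% a larger change than dek1 and 52.4% a larger change than gl1. A larger change than that of gl8 was seen in 41.3% and than that of gl2 in 22.6%.

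**Figure D3:**
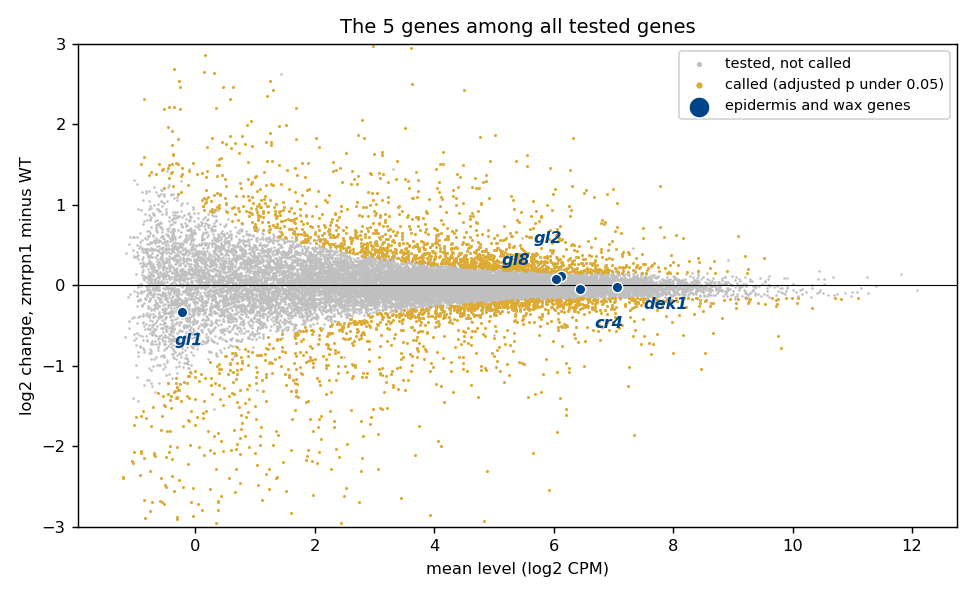
Log2 change in zmrpn1 relative to WT (y axis) against the mean level in log2 CPM (x axis) for 23477 tested genes, with called genes in yellow, other genes in grey and the 5 epidermis and wax genes in blue. The 5 genes lie in the grey band of their abundance, and 61 genes beyond a change of 3 log2 units are outside the y axis.

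Ratios of raw counts within a library do not depend on the scaling between libraries. They are not corrected for gene length and say nothing of which gene is more abundant. The gl2/gl8 ratio was 1.09, 1.07 and 0.974 in the WT libraries and 1.01, 1.12 and 1.09 in the zmrpn1 libraries, with overlapping groups and a range of 0.974 to 1.12 over all 6. The cr4/dek1 ratio was 0.691, 0.625 and 0.669 in WT and 0.592, 0.694 and 0.676 in zmrpn1, again with overlapping groups. The cr4/gl2 ratio was 1.26, 1.34 and 1.38 in WT and 1.27, 1.23 and 1.08 in zmrpn1, a log2 difference of -0.16 (two-sided exact permutation p = 0.2, adjusted p = 0.857 over 10 ratios). The cr4/gl8 ratio was 1.37, 1.43 and 1.34 in WT and 1.28, 1.37 and 1.17 in zmrpn1, a log2 difference of -0.12 (two-sided exact permutation p = 0.2, adjusted p = 0.857). The groups overlapped in all 10 ratios, and 3 against 3 libraries cannot give a two-sided p below 0.1.

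**Figure D4:**
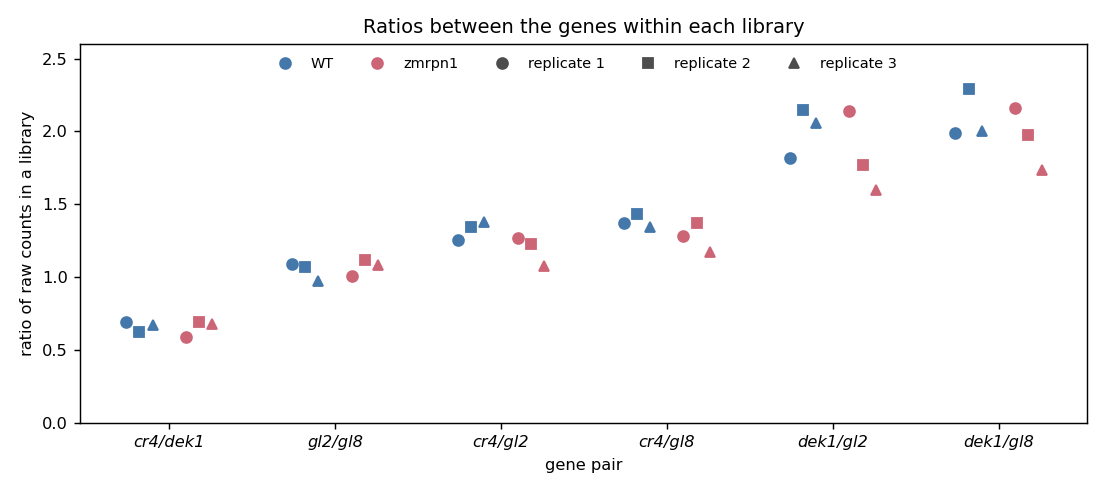
Ratio of raw counts of gene pairs (y axis) in each library, for the 6 pairs that do not include gl1. Blue points are WT, red points are zmrpn1 and symbols mark replicates. The groups overlap in every pair shown, and the cr4/gl2 ratio of zmrpn1 replicate 3 (1.08) is the lowest of its pair.

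The 5 genes lie in separate parts of the count table, on 5 chromosomes by their RefSeq names. Among the 25 tested genes on either side of each, 10 of 50 were called around dek1, 9 around gl8, 8 around cr4, 5 around gl1 and 3 around gl2. Together 35 of the 250 neighbours were called, or 14.0%, beside 12.4% of all tested genes. The median absolute log2 change of the neighbours was highest around dek1, at 0.148, and lowest around gl8, at 0.073. Of the called neighbours of dek1, 5 were higher and 5 lower in zmrpn1. The lower ones include the rows just ahead of dek1, Zm00001d028814, Zm00001d028815 and Zm00001d028816, with log2 changes of -2.6, -2.5 and -5.3. Their mean levels were 2.50, 1.23 and -0.26 log2 CPM, against 7.05 for dek1. Zm00001d028816 was about as scarce as gl1 (-0.22 log2 CPM), so the size of its change is uncertain. These rows fall outside the rule by which genes were named. The neighbours of gl2, the gene with the highest log2 change, held the fewest called genes.

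Profiles over the 6 libraries, each centred on its mean, were compared by root mean square difference. Of 21724 other genes at 1 CPM or more, 3489 lay within 0.1 log2 units of gl2. A profile with no variation at all would also lie within 0.1 log2 units of gl2. The count therefore takes in genes that barely vary, and does not show that the gl2 pattern is shared. The gene nearest to gl2 was Zm00001d018826, at a difference of 0.011 log2 units, with a log2 change of 0.11 (edgeR adjusted p = 0.409). The next was Zm00001d029924, at 0.019 log2 units. For gl1, the gene with the lowest log2 change, 0 genes lay within 0.1 log2 units, and the nearest were Zm00001d006855 at 0.14 and Zm00001d017078 at 0.16. That count does not mark the gl1 profile as rare. Genes as scarce as gl1 (means of 0.808 CPM in WT and 0.673 CPM in zmrpn1) were not ranked. Counting error alone gives gl1 a coefficient of variation of 26.6% in WT and 26.4% in zmrpn1. The identifiers of these nearest genes have no name in the sources used here, and likeness over 6 libraries is a description only.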

How the data were processed

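Total RNA of 6 anther samples, 3 WT and 3 zmrpn1, was sequenced from libraries of the NEBNext Ultra II type, per the labels' protocols. Tools listed in the submitters' processing notes are HISAT2 2.2.1, Trimmomatic 0.39, StringTie 1.3.6, featureCounts 1.6.4 and DESeq2, with B73 RefGen_v4 as the build. No settings are given, so whether counting used strand is unknown, and overlapping genes on opposite strands may share reads. The deposited values are raw whole-number counts per gene. Columns were matched to samples by genotype code and replicate number.

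The whole table was fitted with edgeR 4.0.16 (R 4.3.3). Genes passing filterByExpr (minimum count 10) were kept, libraries scaled by TMM and genotypes compared with a robust quasi-likelihood test, adjusted over 23477 genes. Each standard error is the log2 change over the root of its F statistic. Alternatives used DESeq2 1.42.0 and limma 3.58.1. The steps were also run on simulated counts, and the outcome is not reported here. Changes were simulated only for genes of 1 CPM or more, so a change in a gene as scarce as gl1 was not covered. Chi-square values between libraries of a group were 2.01 to 4.88 per degree of freedom, where counting error alone gives about 1. Each library therefore counted as 1 replicate, though these values do not show if the libraries are from different plants. Counting intervals are exact Poisson 95% intervals and cover counting error only.

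The genes and lists were chosen with earlier results of these data known. All 5 members are named, with the 2 genes of at least 1 CPM whose centred log2 CPM profile (prior count 2) was nearest to the member with the highest and to the member with the lowest change. The RefSeq table, built on Zm-B73-REFERENCE-NAM-5.0, served for names and the order of genes, since the builds differ. Of 44146 nuclear identifiers in the count table, 0 were found in it. No sequences were used here.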

Additional observations from a re-analysis of the deposited data

How the results depend on the processing

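No setting called any of the 5 genes, in 14 alternative fits for each of cr4, dek1, gl2 and gl8 and 13 for gl1, which was not tested with a filter of 1 CPM. The signs of cr4, gl2 and gl8 held in all of their fits. The dek1 change became 0.011 without WT replicate 2 and 0.041 without zmrpn1 replicate 3, and the gl1 change became 0.14 without WT replicate 3. Leaving out a library gave log2 changes of -0.081 to -0.0053 for cr4, -0.082 to 0.041 for dek1, -0.58 to 0.14 for gl1, 0.081 to 0.18 for gl2 and 0.045 to 0.098 for gl8. It left 2261 to 2672 of all tested genes called, 1184 to 1421 higher and 1033 to 1339 lower in zmrpn1, against 2922, 1556 and 1366. The split of called genes into higher and lower was 1719 and 1273 with scaling by library size only, and 1180 and 1119 with DESeq2. With the replicate block 3005 genes and 0 of the 5 were called, the log2 changes were -0.042 for cr4, -0.022 for dek1, -0.31 for gl1, 0.12 for gl2 and 0.079 for gl8, and it changed no call among them. Libraries with equal replicate numbers had deviations from the group means that correlated at -0.037, 0.020 and 0.031. These values gave no sign of pairing, but with 3 libraries in each group they cannot exclude it. The number of genes whose groups did not overlap, 1 of 5, was 0 with upper quartile scaling and 1 with the other scalings, a comparison chosen after seeing the data. The cause of these shifts was not tested. Depth limits gl1, with 57 counts in WT and 44 in zmrpn1.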
